A study of Mus musculus with 24 samples.

Results

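The genes Cd1d1, Mr1, Fcgrt and Hfe, which encode class I-like heavy chains outside the H2 complex, were compared in mouse tumour cells edited in B2m, the gene of their shared light chain. They were taken by symbol from the deposited tables, and all 4 of them were found in each table, among 34866 genes listed in any of the 4 tables. Bulk RNA-seq had been made from 4 mouse tumour lines: MC38 (colon adenocarcinoma), LLC1 (Lewis lung carcinoma), AKR (esophageal carcinoma) and Hepa1-6 (hepatocellular carcinoma). Each line carried either a guide RNA against B2m (sgB2m) or a non-targeting guide (sgNT), with 3 libraries in each of the 8 groups and 24 libraries in all, and every group grew in the same serum-containing medium with no further treatment in the labels. The series asks how loss of MHC class I affects tumour growth and the tumour microenvironment, and here the comparison was sgB2m against sgNT within each line. The labels do not say whether the replicates were separate cultures, nor whether the edited cells were a clone or a pool, so p-values measure only the spread between these libraries.

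Beta-2-microglobulin pairs with the classical class I heavy chains and also with a small family of class I-like chains whose genes lie elsewhere in the genome. CD1d presents lipids to natural killer T cells, MR1 presents small metabolites of microbial vitamin B synthesis to mucosal-associated invariant T cells, FcRn (the heavy chain of which is the product of Fcgrt) salvages IgG and albumin from acidic endosomes, and HFE binds the transferrin receptor and takes part in the control of hepcidin, the hormone of iron balance. These proteins depend to different degrees on beta-2-microglobulin for folding and for reaching the cell surface. RNA levels, the only quantity measured here, do not report that step.

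The genes lie on separate chromosomes, all on the minus strand of mm10 (GENCODE M21). Mr1 (ENSMUSG00000026471) is at chr1:155127277-155146814, Cd1d1 (ENSMUSG00000028076) at chr3:86995834-86999441, Fcgrt (ENSMUSG00000003420) at chr7:45092990-45103851 and Hfe (ENSMUSG00000006611) at chr13:23702034-23710854. B2m itself is at chr2:122147686-122153083 on the plus strand. Fcgrt overlaps the antisense gene Gm45669 with 0 shared exonic bases, and the other 3 overlap no annotated gene.

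The RefSeq promoter windows of build GRCm38.p6, 250 bases before to 50 after the start, are shown because the quantity measured here is the transcript level. An entry was matched for 3 of the 4 genes, Mr1, Fcgrt and Hfe. Each is written 5′ to 3′ on the gene's strand, and capitals mark a motif match.
Mr1 chr1:155146765-155147064, minus strand: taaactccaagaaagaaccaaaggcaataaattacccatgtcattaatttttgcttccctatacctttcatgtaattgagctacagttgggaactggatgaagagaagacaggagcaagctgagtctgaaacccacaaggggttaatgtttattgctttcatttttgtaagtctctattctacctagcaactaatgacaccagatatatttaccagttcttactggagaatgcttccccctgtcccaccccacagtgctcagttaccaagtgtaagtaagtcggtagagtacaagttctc
Fcgrt chr7:45103773-45104072, minus strand: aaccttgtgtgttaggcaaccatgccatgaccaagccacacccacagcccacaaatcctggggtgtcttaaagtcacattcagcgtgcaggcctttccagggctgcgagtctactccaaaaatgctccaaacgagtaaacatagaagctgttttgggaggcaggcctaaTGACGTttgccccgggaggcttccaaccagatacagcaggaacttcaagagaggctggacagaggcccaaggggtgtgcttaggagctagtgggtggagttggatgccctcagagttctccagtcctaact
Hfe chr13:23710805-23711104, minus strand: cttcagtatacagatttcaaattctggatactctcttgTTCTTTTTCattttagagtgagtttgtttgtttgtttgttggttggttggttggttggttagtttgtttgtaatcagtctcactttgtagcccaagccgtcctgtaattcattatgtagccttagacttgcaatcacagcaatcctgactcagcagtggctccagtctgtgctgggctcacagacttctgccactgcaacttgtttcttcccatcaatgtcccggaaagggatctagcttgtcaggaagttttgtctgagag
Both strands were searched for 5 motifs. The Fcgrt window held TGACGT, which is part of the cAMP response element, at position -81 from the start. The Hfe window held GAAANNGAA, which resembles an interferon-response element, on the opposite strand, at position -212, where it reads TTCTTTTTC in the sequence above, and the Mr1 window held none of the 5. Of 32851 promoter windows of the same length, 7.5% held the first motif and 8.6% the second. The GC box, searched as GGGCGG, was in 35.7% of the windows. The CCAAT box was in 37.4% by its name's letters, and the TATA box, searched as TATAAA, in 13.6%. The windows of Mr1 and Hfe were 40.3% and 42.7% GC with 1 and 2 CpG, and that of Fcgrt 53.3% with 5, against a median of 52.7% (quartiles 45.7% and 61.7%). A match is a description of the letters and was not tied to any binding here.

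The libraries held 25 to 49.7 M counted reads each. The unit below is the normalised count, the read count divided by a size factor set within each line. A log2 fold change is the mean log2(normalised count + 1) in sgB2m minus that in sgNT, given ± its standard error with 3 libraries per group, and a change was called at a Benjamini-Hochberg adjusted p under 0.05 over all genes tested in that line by limma's moderated test. B2m RNA fell in all 4 lines and remained present. Its normalised counts were 9157 to 9721 in sgB2m against 31030 to 33410 in sgNT of MC38 (log2 fold change -1.78 ± 0.042), and 4963 to 5180 against 16450 to 16770 in LLC1 (-1.71 ± 0.029). They were 4096 to 4694 against 12480 to 13150 in AKR (-1.57 ± 0.054), and 2451 to 2672 against 6495 to 6670 in Hepa1-6 (-1.35 ± 0.04). The RNA level does not show whether the protein was still made. Markers of lineage and of other cell types were summed as CPM, the read count scaled to the library total. All 10 hepatocyte markers had reads in Hepa1-6, where they summed to 16100 in each sgB2m library and to between 17400 and 17500 in sgNT, against at most 7.85 in any library of the other lines. Squamous markers summed to between 19.4 and 23.3 in AKR, below their 55.0 to 67.1 in MC38. Intestinal markers summed to between 2.13 and 3.81 in MC38, against 1100 to 1190 in Hepa1-6. AKR thus carried little of the squamous and MC38 little of the intestinal programme. The alveolar markers, 51.3 to 59.5 in LLC1, were higher in AKR and Hepa1-6. In each line 6 of 8 myeloid markers had reads, and their sum was 238 to 248 in AKR sgB2m against 86.7 to 92.1 in sgNT, most of it from Cd68 (21241 and 7510 reads), and 66 to 71.5 against 37.8 to 39 in Hepa1-6. In LLC1 it was 13.4 to 16.3 against 18.2 to 23.4, and in MC38 45.5 to 51.2 against 47.3 to 53.9. The T and NK sum stayed at or below 3.28, the B sum at or below 0.28 and the endothelial sum at or below 25.1 in every library. Some markers were nearly absent: Ptprc and Itgam had at most 8 reads in any group and Adgre1 at most 2. Tyrobp and Cd3e, and the lung marker Nkx2-1, were in none of the tables. Other myeloid markers were expressed. A mean log2 of at least 6 was reached by 2 of 8 each in MC38 and AKR and 3 each in LLC1 and Hepa1-6. Of those tested, 2 of 3 were called higher and 0 lower in AKR, and 2 of 4 higher and 1 lower in Hepa1-6. MC38 had 1 of 3 higher and 1 lower, and LLC1 0 of 3 higher and 1 lower. The shares over all tested genes are given below. The part of these markers in the results was not tested, and in bulk libraries fewer cells of a type and less RNA per cell cannot be told apart.

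Without the B2m guide, the means of the 4 genes stood in the same order in every line. Fcgrt was the highest per exon length, at 12.9 to 15.7 CPM per kb of exon over the 4 sgNT means, and Cd1d1 the lowest, at 0.422 to 1.79. Mr1 and Hfe lay between, at 3.64 to 9.23 and 2.3 to 3.23. B2m stood far above all of them, from 269 in Hepa1-6 to 1060 in MC38.

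**Figure D1:**
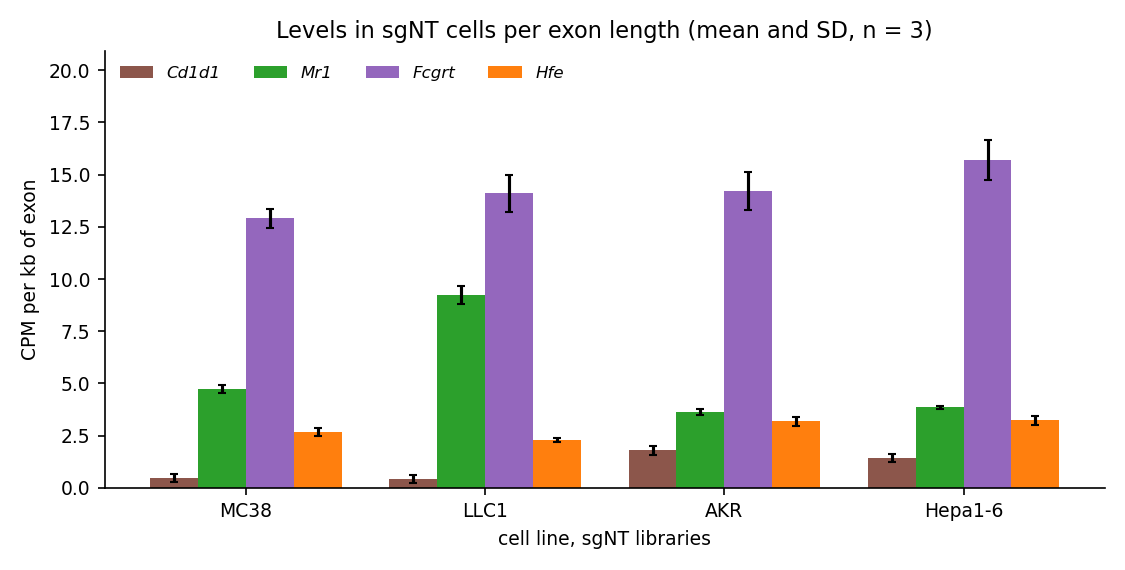
Mean level of each gene in the 3 sgNT libraries of each line (bars), in CPM per kb of exon on the vertical axis, with SD as error bars. Fcgrt is the highest bar in each line, LLC1 has the highest Mr1 (9.23), and Cd1d1 is above 1 in AKR and Hepa1-6 only.

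Cd1d1 was the most unequal between lines. It had 1.79 ± 0.198 CPM per kb in AKR and 1.42 ± 0.2 in Hepa1-6 (SD, n = 3), with overlapping libraries, against 0.467 ± 0.202 in MC38 and 0.422 ± 0.173 in LLC1, which also overlapped each other. Mr1 was highest in LLC1 at 9.23 ± 0.435 and next in MC38 at 4.74 ± 0.206, while Hepa1-6 (3.85 ± 0.0909) and AKR (3.64 ± 0.15) overlapped. Fcgrt was nearly level: 15.7 ± 0.936 in Hepa1-6, 14.2 ± 0.911 in AKR, 14.1 ± 0.899 in LLC1 and 12.9 ± 0.477 in MC38, with each neighbour in that order overlapping the next. Hfe stood at 3.23 ± 0.218 in Hepa1-6 and 3.19 ± 0.207 in AKR, which overlapped, then at 2.67 ± 0.192 in MC38 and 2.3 ± 0.0854 in LLC1, which did not. These levels rest on read totals of separately processed lines and were not tested against each other.

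All 4 genes passed the expression filter in all 4 lines, with every library above the filter's log2 value of 3.5, so none was tested through 1 group alone. Of the 16 changes, 9 were called higher with sgB2m, 1 lower and 6 not called. MC38 had 2 of 4 higher, where 15.9% of all tested genes were called higher and 15.8% lower. LLC1 had 4 of 4 higher, beside 20.7% of all tested genes higher and 21.8% lower. AKR had 2 higher and 1 lower, beside 21.0% and 21.9%, and Hepa1-6 had 1 higher, beside 18.6% and 19.2%. Groups that do not overlap were common among all tested genes too, at 45.0% (MC38), 51.8% (LLC1), 52.5% (AKR) and 47.6% (Hepa1-6), so separation of the 3 libraries from the other 3 is by itself an ordinary result in these data.

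**Figure D2:**
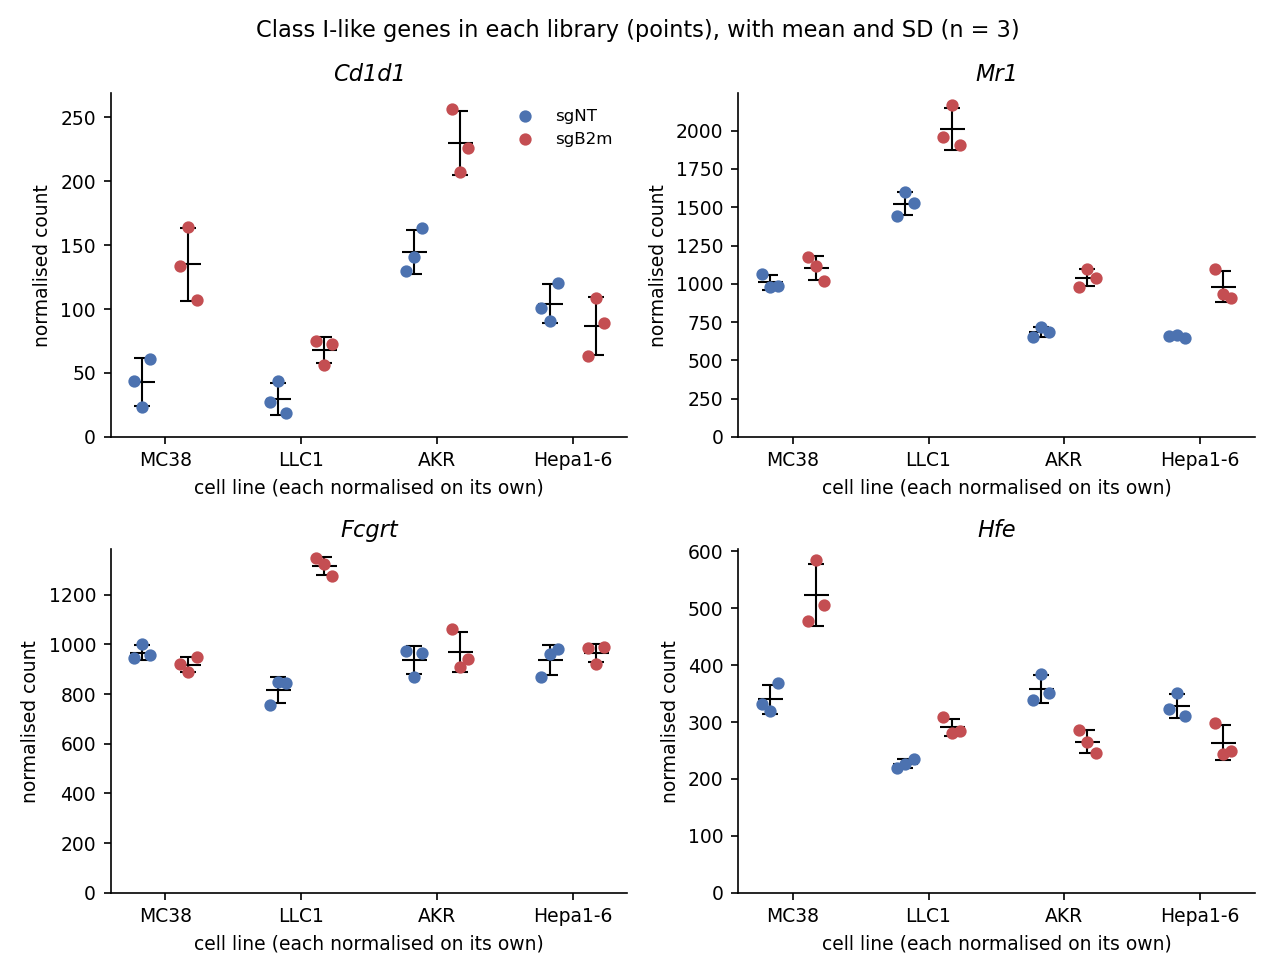
Normalised counts of Cd1d1, Mr1, Fcgrt and Hfe (1 panel each, vertical axis starting at 0) in every sgNT (blue) and sgB2m (red) library of each line, with mean and SD (n = 3). The groups of Cd1d1 separate in MC38, LLC1 and AKR, those of Fcgrt in LLC1 only, and those of Hfe in all 4 lines with sgB2m above sgNT in 2 of them and below in the other two.

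Cd1d1 RNA rose in the MC38, LLC1 and AKR cells with the B2m guide and was not called in Hepa1-6. As a ratio of group means the rise in MC38 was 3.15-fold, that in LLC1 2.27-fold and that in AKR 1.59-fold, and MC38 and LLC1 were the lines with the lowest control levels. The ratio and the control level share the same sgNT libraries, so they are not independent. In MC38 the sgB2m libraries had 133.4, 163.9 and 107.4 normalised counts and the sgNT libraries 43.67, 23.7 and 61.05. The lowest edited library lay above the highest control, for a log2 fold change of 1.71 ± 0.34 (95% interval 0.96 to 2.46, adjusted p = 0.00368). These values rest on 387 and 149 reads per group, so counting error is large for this gene.
In LLC1 the sgB2m libraries stood at 75.34, 56.09 and 72.71 and the sgNT libraries at 27.43, 43.47 and 18.92, again without overlap and again on few reads, 209 and 89. The log2 fold change was 1.22 ± 0.31 (0.57 to 1.88, adjusted p = 0.00493). AKR, where Cd1d1 was best covered with 701 and 433 reads, had 256.7, 207.1 and 225.8 in sgB2m against 130.0, 141.1 and 163.7 in sgNT. Those groups did not overlap either, and the log2 fold change was 0.66 ± 0.14 (0.36 to 0.97, adjusted p = 0.00271). Hepa1-6 had 63.4, 108.4 and 89.2 in sgB2m against 100.9, 90.7 and 120.6 in sgNT, with overlapping groups. Its log2 fold change of -0.28 ± 0.23 was not called (-0.77 to 0.21, adjusted p = 0.382), and the interval leaves out rises as large as the estimate in AKR.

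The reads of Cd1d1 could be shared with Cd1d2, its close paralog, depending on how multi-mapping reads were counted. Cd1d2 was not listed in MC38 or LLC1, had 14 and 5 reads in sgB2m and sgNT of AKR, and 1 and 0 in Hepa1-6. Assigned Cd1d2 reads were thus few beside those of Cd1d1.

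Mr1 RNA rose in LLC1, AKR and Hepa1-6 and was not called in MC38. The ratio of means was 1.32 for LLC1, 1.52 for AKR and 1.5 for Hepa1-6. LLC1, the line with the most Mr1, had 1962, 2167 and 1909 normalised counts in sgB2m against 1446, 1601 and 1525 in sgNT (log2 fold change 0.40 ± 0.059, adjusted p = 7.11e-05). AKR had 982.1, 1094 and 1040 against 653.4, 716.1 and 682.8 (0.60 ± 0.07, adjusted p = 5.58e-05). Hepa1-6 had 1099, 936.3 and 908.9 against 656.6, 666.6 and 642.8 (0.58 ± 0.082, adjusted p = 4.19e-05). In each of these lines every edited library lay above every control, and the Hepa1-6 controls were the most alike. MC38 had 1173, 1113 and 1021 in sgB2m against 1066, 980.4 and 983.3 in sgNT, so its groups overlapped, and the log2 fold change of 0.13 ± 0.078 was not called (-0.05 to 0.3, adjusted p = 0.254). The upper end of that interval lies below the Mr1 estimate of each other line.

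Fcgrt RNA rose in LLC1 alone among the called changes, by 1.61-fold. The LLC1 sgB2m libraries had 1349, 1322 and 1277 normalised counts and the sgNT libraries 754.9, 849.7 and 845, with no overlap and a log2 fold change of 0.69 ± 0.064 (0.55 to 0.83, adjusted p = 9.07e-07). In the other lines the groups overlapped and the estimates were small. MC38 had 921.6, 887.7 and 948.3 in sgB2m against 945.1, 1000 and 957.4 in sgNT (-0.07 ± 0.07, -0.23 to 0.08, adjusted p = 0.466). AKR had 1062, 908 and 941.6 against 975.1, 870.8 and 965 (0.05 ± 0.077, -0.12 to 0.22, adjusted p = 0.644), and Hepa1-6 had 983.7, 922.1 and 988 against 870.3, 962.7 and 982.8 (0.04 ± 0.071, -0.11 to 0.19, adjusted p = 0.7). Each of these 3 intervals ends well short of the LLC1 estimate.

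Hfe RNA rose in MC38 and LLC1 and fell in AKR. It was 1.54-fold higher in MC38, where sgB2m libraries had 478.2, 584.9 and 506.5 normalised counts and sgNT libraries 331.9, 319.3 and 368.5 (log2 fold change 0.62 ± 0.11, 0.36 to 0.87, adjusted p = 0.00258). It was 1.28-fold higher in LLC1, with 308.3, 280.5 and 285.1 against 219.5, 226.2 and 235.4 (0.36 ± 0.11, 0.13 to 0.59, adjusted p = 0.0153). This LLC1 call was lost without sgB2m replicate 1, at 0.32 with an adjusted p of 0.0632. In AKR it was 1.35-fold lower, with 285.6, 265.2 and 246.5 against 338.3, 385.3 and 350.5 (-0.43 ± 0.1, -0.65 to -0.2, adjusted p = 0.00589). None of these 3 pairs of groups overlapped.
Hepa1-6 had 299, 243.2 and 248.4 in sgB2m against 322.8, 350.8 and 310.1 in sgNT. Those groups did not overlap either, yet the log2 fold change of -0.32 ± 0.12 missed the threshold (-0.58 to -0.05, adjusted p = 0.0559). It passed with quantile normalisation (-0.34, adjusted p = 0.0423), with centring on the median of all genes (-0.35, adjusted p = 0.0385) and without sgB2m replicate 1 (-0.41, adjusted p = 0.0271), so this value lies at the threshold.

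**Figure D3:**
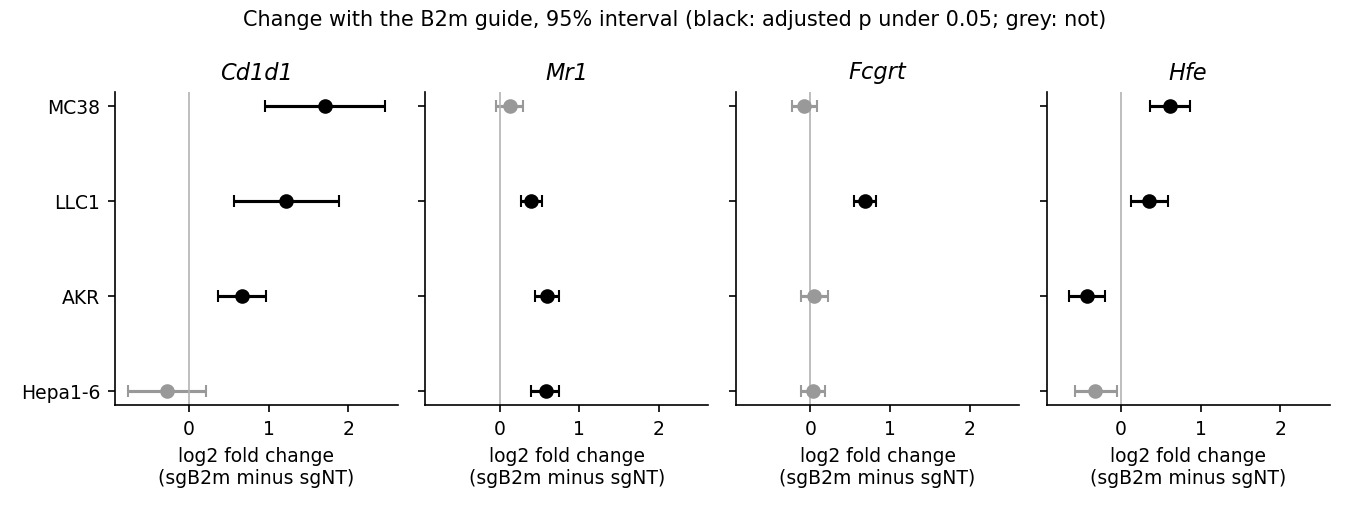
Log2 fold change of each gene (1 panel each, horizontal axis) in each line, sgB2m minus sgNT, with 95% intervals (n = 3 per group); black points passed an adjusted p of 0.05 and grey points did not. Hfe lies right of 0 in MC38 and LLC1 and left of it in AKR and Hepa1-6.

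Whether the changes differed between lines was tested directly, by the interaction of line and guide in 1 model of all 24 libraries over the 12674 genes tested in every line, with 69.8% of those genes past an adjusted p of 0.05. All 4 genes were past it, at an adjusted p of 0.00128 for Cd1d1, 0.000918 for Mr1, 1.04e-06 for Fcgrt and 1.95e-06 for Hfe, and given that background their passing is not particular to them. Each pair of lines was then compared for each gene, 24 comparisons chosen after the data were seen and adjusted over all genes within a pair. The percentages of all genes past the threshold were 40.2% for MC38 against LLC1, 47.6% for MC38 against AKR, 37.7% for MC38 against Hepa1-6, 39.5% for LLC1 against AKR, 45.2% for LLC1 against Hepa1-6 and 41.8% for AKR against Hepa1-6.
The Cd1d1 change in MC38 exceeded that in Hepa1-6 by 1.99 on the log2 scale (1.13 to 2.85, adjusted p = 0.000534) and that in AKR by 1.05 (0.19 to 1.91, adjusted p = 0.0414). The LLC1 change was larger than that of Hepa1-6 (difference 1.50, 0.64 to 2.36, adjusted p = 0.00476). MC38 and LLC1 were not told apart (0.49, -0.37 to 1.35, adjusted p = 0.378), nor LLC1 and AKR (0.56, -0.30 to 1.42, adjusted p = 0.305). AKR against Hepa1-6 missed the threshold after adjustment, at 0.94 (0.08 to 1.80, adjusted p = 0.0738). Each Cd1d1 difference has the same standard error, 0.41, since the model takes 1 variance per gene over all 24 libraries. The changes within lines had standard errors from 0.14 (AKR) to 0.34 (MC38).
For Mr1, MC38 stood apart with a smaller change than LLC1 (-0.27, adjusted p = 0.0372), AKR (-0.48, adjusted p = 0.000558) and Hepa1-6 (-0.45, adjusted p = 0.00129). The other 3 lines were not told apart for Mr1, with differences of -0.20 to 0.02 and adjusted p from 0.13 to 0.877. The Fcgrt change in LLC1 was larger than in MC38 (MC38 minus LLC1 -0.76, adjusted p = 1.11e-06), AKR (LLC1 minus AKR 0.64, adjusted p = 1.25e-05) and Hepa1-6 (LLC1 minus Hepa1-6 0.65, adjusted p = 7.3e-06). Among the other 3 lines the Fcgrt differences lay between -0.12 and 0.01, with adjusted p of 0.315 to 0.955.
For Hfe, the comparisons past the threshold were those of MC38 or LLC1 with AKR or Hepa1-6. The MC38 change exceeded those of AKR by 1.05 (0.74 to 1.35, adjusted p = 3.75e-06) and Hepa1-6 by 0.94 (adjusted p = 2.39e-05), and the LLC1 change exceeded them by 0.79 (adjusted p = 0.000176) and 0.68 (adjusted p = 0.000658). MC38 against LLC1 differed by 0.26 (-0.05 to 0.57, adjusted p = 0.172) and AKR against Hepa1-6 by -0.11 (-0.42 to 0.20, adjusted p = 0.594). A p that misses the threshold does not show that 2 lines changed alike.

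Other heavy chains known to pair with B2m are Cd1d2, described above, and the Mill genes. Mill1 was listed in no table. Mill2, a class I-like surface chain, was lower in AKR at -0.50 ± 0.14 (adjusted p = 0.0139). It was not called in MC38 (0.31 ± 0.14, adjusted p = 0.131), LLC1 (0.50 ± 0.22, adjusted p = 0.0814) or Hepa1-6 (-0.13 ± 0.27, adjusted p = 0.749).
Class I-fold proteins that do without B2m gave a comparison family: Procr, the endothelial protein C receptor, Azgp1, and the NKG2D ligands of the Ulbp, Raet1 and H60 groups. Of 10 such genes, 4 were tested in MC38 (2 higher, 1 lower, median log2 fold change 0.32) and 5 in LLC1 (3 higher, 1 lower, median 0.19). In AKR 1 of 4 was higher and 0 lower (median 0.1), and in Hepa1-6 1 of 3 was higher and 1 lower (median -0.19). The medians of all tested genes lay between -0.01 and 0.01. The counts here and those of the lists, neighbours and chromosomes below stand beside shares over all tested genes. Those shares, higher and lower, were 15.9% and 15.8% in MC38 and 20.7% and 21.8% in LLC1. They were 21.0% and 21.9% in AKR and 18.6% and 19.2% in Hepa1-6. Procr fell by 0.93 ± 0.081 in MC38 (adjusted p = 2.64e-05) and by 0.32 ± 0.11 in LLC1 (adjusted p = 0.0287), and rose by 0.59 ± 0.061 in AKR (adjusted p = 2.56e-05) and 0.69 ± 0.042 in Hepa1-6 (adjusted p = 3.75e-09). In each line its sign was opposite to that of Hfe, which was not called in Hepa1-6.

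Genes of CD1d lipid loading and endosomal trafficking split between higher and lower. In MC38 2 of 17 tested were higher and 1 lower (median -0.01), and in LLC1 6 of 16 were higher and 6 lower (median -0.04). AKR had 9 of 17 higher and 5 lower (median 0.18), and Hepa1-6 6 and 5 of 17 (median 0.02). Mttp, the microsomal lipid transfer protein that lipidates CD1d in the ER, was higher in MC38 (0.29 ± 0.093, adjusted p = 0.0372) and lower in LLC1 (-0.45 ± 0.082, adjusted p = 0.000432), AKR (-0.29 ± 0.085, adjusted p = 0.0164) and Hepa1-6 (-0.29 ± 0.038, adjusted p = 1.87e-05). Psap, the precursor of the saposins that exchange lipids on CD1d in lysosomes, was lower in AKR (-0.12 ± 0.043, adjusted p = 0.0396) and between -0.01 and 0.08 elsewhere, not called. Cd74, the invariant chain, which also escorts CD1d, was lower in LLC1 (-2.19 ± 0.39, adjusted p = 0.000368) and AKR (-1.24 ± 0.088, adjusted p = 1.96e-06) and higher in Hepa1-6 (1.75 ± 0.52, adjusted p = 0.0143). In MC38 Cd74 was at -1.16 ± 0.53 and not called (adjusted p = 0.126). Outside AKR it rested on few reads. For sgB2m and sgNT these were 59 and 129 in MC38, 37 and 170 in LLC1 and 98 and 33 in Hepa1-6.

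All 8 genes of the list on MR1 folding and trafficking were tested in every line. The counts higher and lower were 5 and 3 in MC38 (median 0.2), 3 and 2 in LLC1 (-0.02), 1 and 3 in AKR (0.03) and 2 and 2 in Hepa1-6 (-0.04). Tapbpl encodes TAPBPR, a chaperone of class I and of MR1, and was higher in MC38 (0.47 ± 0.096, adjusted p = 0.00475) and lower in AKR (-0.71 ± 0.084, adjusted p = 6.17e-05). It was not called in Hepa1-6 (0.25 ± 0.12, adjusted p = 0.0995) or LLC1 (-0.02). Tapbp, which encodes tapasin and was singled out after its values were seen, was called higher in each line, from 0.14 in LLC1 to 0.42 in Hepa1-6. The list on class I assembly in the ER, which shares Tapbp and Tapbpl with it, had 4 of 11 higher and 1 lower in MC38, 2 and 4 in LLC1, 3 and 6 in AKR and 4 and 5 in Hepa1-6. Its medians were 0.09, -0.09, -0.16 and 0.0 in that order of lines. The largest called changes in it were those of Erap1, the ER peptide trimmer, in MC38 (0.73 ± 0.072), Hspa5, the chaperone BiP, in LLC1 (-0.79 ± 0.025), Tapbpl in AKR and Tap2, a subunit of the peptide transporter, in Hepa1-6 (0.64 ± 0.18).

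Among genes of FcRn recycling and its cargo, 0 of 9 tested were called by limma in MC38 (median -0.07), with 2 at an unadjusted p under 0.05 and 0 called by limma's voom on the recovered reads. LLC1, the line in which Fcgrt rose, had 1 of 9 higher and 3 lower (median -0.06), AKR 3 and 4 of 8 (median -0.11) and Hepa1-6 3 and 3 of 10 (median 0.04). Alb, which encodes the albumin that FcRn salvages, was listed only in Hepa1-6 and fell there by 0.39 ± 0.015 (adjusted p = 1.49e-11), from a mean of 148500 to 113400 normalised counts. Of the 10 hepatocyte markers, which include Alb, 7 were lower and 2 higher in Hepa1-6, with a median of -0.39. No member of the FcRn list reached a called change of 0.58 on the log2 scale.

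The list on HFE and the hepcidin axis leaned lower in AKR, with 12 of 18 lower and 1 higher (median -0.38). Of all genes tested in AKR, 21.9% were lower and 21.0% higher. Elsewhere the list had 6 lower and 3 higher of 15 in MC38 (median -0.12), 5 and 3 of 14 in LLC1 (median -0.11), and 4 and 5 of 17 in Hepa1-6 (median 0.08). Tfrc, the transferrin receptor to which HFE binds, fell in the 3 lines outside Hepa1-6: by 0.55 ± 0.063 in MC38 (adjusted p = 0.000144), 0.57 ± 0.04 in LLC1 (adjusted p = 5.33e-08) and 0.71 ± 0.058 in AKR (adjusted p = 5.13e-06). In AKR its libraries read 2612, 3019 and 2923 in sgB2m against 4481, 4688 and 4798 in sgNT. In Hepa1-6 it was at -0.09 ± 0.04 and not called (adjusted p = 0.0827). Hfe and Tfrc therefore moved in opposite directions in MC38 and LLC1 and both fell in AKR. Tfr2, the other transferrin receptor that binds HFE, was below the filter in MC38 and LLC1 and not called in AKR (-0.12 ± 0.64) or Hepa1-6 (0.17 ± 0.32). Hamp, the hepcidin gene, was listed only in Hepa1-6, with 0 reads in sgB2m and 3 in sgNT, too few to measure a change at this depth.
Bmp2, a ligand of the pathway that drives hepcidin, had the largest called change of the list in MC38 (-2.55 ± 0.27, adjusted p = 9.51e-05). Atoh8, a transcription factor of the same pathway, was higher in MC38 (2.05 ± 0.26, adjusted p = 0.000258) and LLC1 (1.29 ± 0.41, adjusted p = 0.02) and lower in AKR (-1.32 ± 0.23, adjusted p = 0.000784) and Hepa1-6 (-0.24 ± 0.071, adjusted p = 0.0156), the same signs as Hfe in each line. Smad7, an inhibitor that the pathway itself induces, was singled out after its values were seen and fell by 0.60 ± 0.079 in MC38, by 0.80 ± 0.079 in LLC1 and by 0.89 ± 0.06 in AKR. In Hepa1-6 it was at -0.04 ± 0.051, not called.

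Nlrc5, the transactivator of classical class I genes, was higher in MC38 (0.41 ± 0.075), AKR (0.37 ± 0.067) and Hepa1-6 (1.13 ± 0.1, adjusted p = 4.82e-07) and lower in LLC1 (-0.31 ± 0.073, adjusted p = 0.00298), where all 4 class I-like genes rose. Of 13 transcription regulators of class I, 5 were higher and 1 lower in MC38 (median 0.12), 2 and 3 in LLC1 (-0.05), 3 and 5 in AKR (-0.03) and 8 and 2 in Hepa1-6 (0.22). Nfyc, a CCAAT-binding subunit, was lower in AKR (-0.63 ± 0.061, adjusted p = 1.58e-05).

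**Figure D4:**
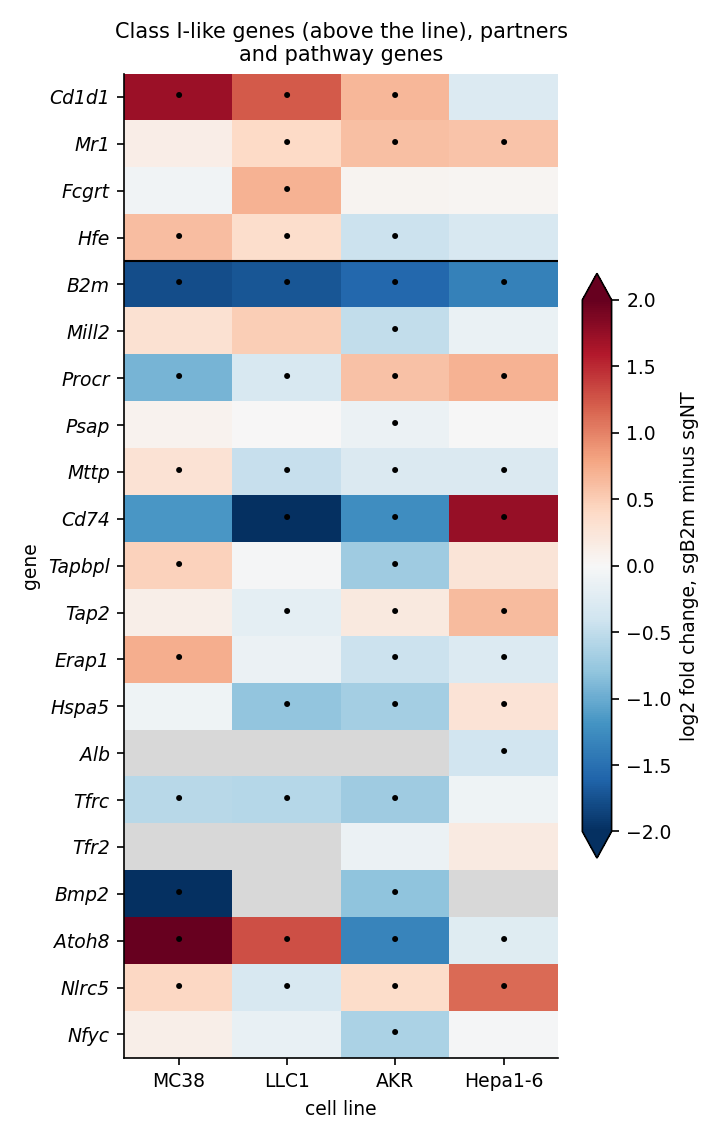
Log2 fold change, sgB2m minus sgNT, of the 4 class I-like genes (above the line) and of B2m, partners and pathway genes (below it) in each line, as colour; a dot marks an adjusted p under 0.05 and grey a gene not tested. Tfrc is blue with a dot in MC38, LLC1 and AKR, and Procr and Atoh8 change colour between the first 2 lines and the last 2.

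The nearest tested genes on the chromosome, 3 on each side, were read beside each gene. Of all tested genes, 15.8% to 21.9% were called in a given direction, depending on the line. Around Cd1d1, 1 of 6 neighbours was higher in MC38 (Kirrel, 0.36 ± 0.062) and 1 in LLC1 (Lrba, 0.56 ± 0.073), whereas in AKR, where Cd1d1 rose, 3 of 6 were lower (Lrba, Dclk2 and Kirrel). Around Fcgrt in LLC1, 0 of 6 were higher and 3 lower, among them Prr12 (-0.24) and Rpl13a (-0.13). Around Mr1 in Hepa1-6, 4 of 6 were higher, Ier5 (0.74), Gm9530 (0.75), Stx6 (0.47) and Xpr1 (0.24), and Glul was lower (-0.47). In AKR, where Mr1 also rose, 0 of 6 were higher and 1 was lower, Xpr1 (-0.5). In LLC1, where Mr1 rose too, 1 of 6 was higher, Xpr1 (0.22), and 2 were lower, Ier5 (-0.41) and Stx6 (-0.12). Hfe lies in the histone cluster of chromosome 13, and 3 of its 6 neighbours were called higher in MC38, where Hfe rose: Hist1h2ac (1.11 ± 0.33), Hist1h2bc (0.51 ± 0.15) and Hist1h1c (0.71 ± 0.055). In AKR, where Hfe fell, 1 of 6 was called lower, Hist1h1c (-1.0 ± 0.067). In LLC1, where Hfe rose, 0 of 6 were called higher and 2 lower, Hist1h1c (-0.24 ± 0.063) and Ripor2 (-1.15 ± 0.37).
Over the 1013 tested genes of chromosome 1, the median log2 fold change in MC38 was 0.23, with 398 higher and 36 lower. The Mr1 estimate of 0.13 there is below that median. Chromosome 3 had a median of 0.09 in MC38 over 869 genes, beside the Cd1d1 change of 1.71. The part of these shifts in the results was not tested.

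Over the 24 libraries the genes most correlated with each member in log2(CPM + 1) were Psme2 (r = 0.878), Stat3 (0.875) and Mindy1 (0.867) for Cd1d1, and Ppm1k (0.957), Zfp874b (0.948) and Glrx (0.948) for Mr1. They were Cnn3 (0.873), Serinc3 (0.859) and Dcaf6 (0.855) for Fcgrt, and Psat1 (0.794), Uba7 (0.754) and Acss2 (0.731) for Hfe. Between the members r ran from -0.37 (Cd1d1 and Mr1) to 0.61 (Mr1 and Fcgrt). Libraries of a line share their level, so these coefficients over 12674 genes mostly describe differences between the lines.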

How the data were processed

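Bulk RNA-seq of 24 libraries was used, 3 for each of 4 lines with sgB2m or sgNT, grouped by the labels. The authors deposited 1 table of log2 normalised counts per line. The tools named in the submitters' processing notes are STAR, DESeq2 and FastQC 0.11.5, with build mm10. The gene counter, its annotation and its strand setting are not given in the sources used here, while the libraries were strand-specific per the labels' protocols. The deposited log2 values returned whole reads for 100% of values (within 0.05 reads), so they were taken as log2(count divided by a size factor + 1), with size factors set within each line. The constant of 1 draws changes of low genes such as Cd1d1 toward 0. If strand was not used in counting, reads of a gene and its antisense partner would be mixed.

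Genes reaching a log2 value of 3.5 in 3 or more of a line's 6 libraries were tested with limma 3.58.1 in R 4.3.3 (moderated test, two-sided, with a trend on intensity and no covariate, Benjamini-Hochberg over all tested genes), which gave 14910 (Hepa1-6) to 16532 (MC38) genes. The fit was checked on simulated counts that gave every gene the same dispersion. That setting does not show how the fit performs for a gene that varies as Cd1d1 did. The interaction used 1 model of all 24 libraries. Gene IDs matched GENCODE M21 for 34787 of 34866 genes. The members and gene lists were chosen with earlier results of these data known. Named genes were the members, B2m, fixed close partners, the called gene with the largest change of at least 0.58 per list and line, the 3 tested neighbours on each side and the 3 genes most correlated with each member; those outside this rule are said to have been singled out. Some genes that the rule names are not reported here. Alternatives were a pseudocount of 8, a stricter filter (log2 of 5) and none, no trend, quantile normalisation, median centring, voom on the recovered reads, a replicate block and leaving out each library. The depth of 25 to 49.7 M reads limits Cd1d1 most.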

Additional observations from a re-analysis of the deposited data

Results flagged for a closer look

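Each of the 4 genes changed to a different extent in different lines, by limma's F test of a line-by-guide interaction over 24 libraries. The adjusted p was 0.00128 for Cd1d1, whose log2 fold change was 1.71 in MC38 and -0.28 in Hepa1-6. It was 0.000918 for Mr1, with 0.13 in MC38 and 0.60 in AKR. It was 1.04e-06 for Fcgrt, with 0.69 in LLC1 and -0.07 in MC38, and 1.95e-06 for Hfe, with 0.62 in MC38 and -0.43 in AKR. Of all 12674 genes tested, 69.8% passed the same threshold, so a difference between lines is the common case in these data.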

How the results depend on the processing

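Of 224 recomputed changes of the 4 genes, 217 kept their direction and their side of the threshold. Without 1 library the Cd1d1 change was 1.35 to 2.01 in MC38, lowest without sgNT replicate 2, and 0.95 to 1.53 in LLC1. All of those stayed called. Leaving out 1 library at a time gave 0.32 to 0.38 for Hfe in LLC1 (adjusted p 0.0263 to 0.0632) and -0.41 to -0.26 for Hfe in Hepa1-6 (0.0271 to 0.173). It gave -0.02 to 0.1 for Fcgrt in AKR and -0.01 to 0.07 for Fcgrt in Hepa1-6, uncalled changes that turned sign at -0.02, -0.00 and -0.01. Hfe in Hepa1-6 passed the threshold with quantile normalisation (-0.34) and with median centring (-0.35); the cause was not tested. The 4 B2m changes and the 4 differences between lines kept their calls under every alternative run. The interaction F test for Cd1d1 came nearest the threshold, at an adjusted p of 0.0421 without replicate 1. The counts of called genes moved more, with 3858 to 6082 in MC38 without 1 library against 5251 with all. Without the trend on intensity they were 3651 (MC38), 5311 (LLC1), 5624 (AKR) and 4146 (Hepa1-6), against 5251, 6503, 6815 and 5637 with it.

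The deviations of same-numbered libraries from their group means were nearly uncorrelated (r of -0.03 to 0.05). Every LLC1 library still correlated best with its own number, while in each other line not every library did. These small correlations do not settle whether the numbers mark a pairing. With a replicate block the called genes were 5120 (MC38), 6306 (LLC1), 6494 (AKR) and 5589 (Hepa1-6), against 5251, 6503, 6815 and 5637 without it, and no member's call changed. Depth limits Cd1d1, which had 89 reads over the 3 LLC1 sgNT libraries, and Cd1d2 and Hamp, which had at most 14 reads in any group.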
